A study of Mus musculus with 8 samples.

Results

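The effect of Litchi loss that was common to both sampling days was examined in motor neurons made from mouse embryonic stem cells. The rule set all 4 arrays titled LitchiKO against all 4 titled Ctrl, with day as a covariate, and so took in 8 of the 8 arrays of the series. It then described the genes whose difference had 1 sign in each of the 4 pairs formed by a knockout and a control array of the same day and the same N number. Each genotype, control or Litchi knockout, was sampled on day 7 and on day 9 with 2 arrays a day, which gave 4 groups. Cells of both genotypes were male and carried Hb9-GFP, a reporter of the motor neuron gene Mnx1. Retinoic acid and Shh were given from day 2 to day 5, the embryoid bodies were then dissociated, and GDNF was given afterwards until the RNA was taken. The labels do not state the nature of the deletion, how many knockout clones were used or whether the replicates were separate cultures. The p-values therefore measure the spread between these arrays, which may be technical, and a difference between cell clones cannot be told apart from a difference between genotypes.

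Litchi is known as a long noncoding RNA gene of spinal motor neurons. In the spinal cord, retinoic acid and Sonic hedgehog set up Olig2-positive progenitors, which leave the cell cycle, switch on Isl1 and Lhx3, and then build axons, synapses and the machinery that makes acetylcholine. Cultures of this kind also hold progenitors, interneurons and other cell types. In bulk RNA from such a mixture, fewer cells of a type and less RNA per cell cannot be told apart.

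An expression level here is the log2 processed signal of a probe minus the 75th percentile of its array, so 0 is the 75th percentile itself. That percentile ran from 1088 to 1691 intensity units on arrays of replicate 1 and from 649 to 854 on those of replicate 2. On replicate 1 arrays 61.3% to 67.9% of spots were well above background, and on replicate 2 arrays 55.9% to 57.7%. The main fit held no term for this difference between replicate numbers. The number of arrays limits the precision. The targeted gene was matched by 0 names, so the knockout labels could not be checked against its RNA. The motor neuron genes Isl1, Lhx3, Chat and Slc18a3 were well above background on all 8 arrays. Within a group, the Pearson r between arrays was 0.989 to 0.994 across genes, which are not independent replicates. Control day 9 replicate 2 stood apart in its interferon-response genes, and results that rest on it are given with and without it.

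Knockout and control cells differed at 3897 of the 28402 genes and unnamed probes tested (13.7%; limma, Benjamini-Hochberg adjusted p under 0.05). Of these, 1431 were higher in knockout cells (5.04% of those tested) and 2466 were lower (8.68%). Among the 15038 genes with a symbol, 2303 were called (15.3%), 1080 of them higher (7.18%) and 1223 lower (8.13%). Counts in the gene lists below are to be read against these shares. A total of 9273 (32.6%) had an unadjusted p under 0.05. The balance of rises and falls depended on the scaling: rises made up 36.7% of the calls here, 49.7% after quantile normalization, 45.1% after normexp background correction, 49.6% in the authors' table of values and 73.5% when each array was centred on its median. The median change over all genes and probes was -0.06 here and 0.12 with median centring. All changes below are relative to the 75th percentile of the array.

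The direction was nearly always common to the 4 pairs once a gene was called. Of the 3897 calls, 3873 had 1 sign in all pairs (13.6% of those tested), 1412 higher and 2461 lower, and 2284 of them had a symbol (15.2%). The 24 calls with mixed signs included 19 with a symbol. Both conditions use the same values, so this count describes the calls and is no further test of them. A common sign in all 4 pairs was held by 44.4% of everything tested, called or not, and by 46.5% of genes with a symbol. The median size of the 3873 changes was 0.71 on the log2 scale. At least 1 log2 unit was reached by 936 (307 higher, 629 lower), and at least 2 by 146 (35 higher, 111 lower). These counts take in genes that were below background on arrays of 1 genotype, such as Ctsr, Tpbpb and Mr1. Their sizes are uncertain, as described below. Without any 1 array the count of calls was lower. On day 7, leaving out replicate 1 of the controls gave 2332, replicate 2 of the controls 2456 and replicate 1 of the knockout 1609. On day 9, leaving out replicate 1 of the controls gave 1110, and replicates 1 and 2 of the knockout gave 952 and 1133. A core of 746 genes and probes, 256 higher and 490 lower, was called in each of the 8 fits that left out 1 array.

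No gene passed the test of a difference between the days: the interaction of day and genotype was called for 0 of 28402 (0%; limma on 4 group means), with 1638 (5.77%) at an unadjusted p under 0.05. This does not show that the effects were equal. In the same fit of 4 group means, 64 genes and probes passed on day 7 alone (0.225%) and 1232 on day 9 alone (4.34%). Of the 3873 with 1 sign, 58 also passed on day 7, 975 on day 9 and 53 on both, while 2893 passed on neither day and were called only when the days were pooled. The fitted change was larger on day 9 in 2498 of the 3873 (64.5%). Among the falls this held for 67.2% and among the rises for 59.7%. Across all genes and probes the changes on the 2 days correlated at r = 0.585, with no control array in common between the days.

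**Figure D1:**
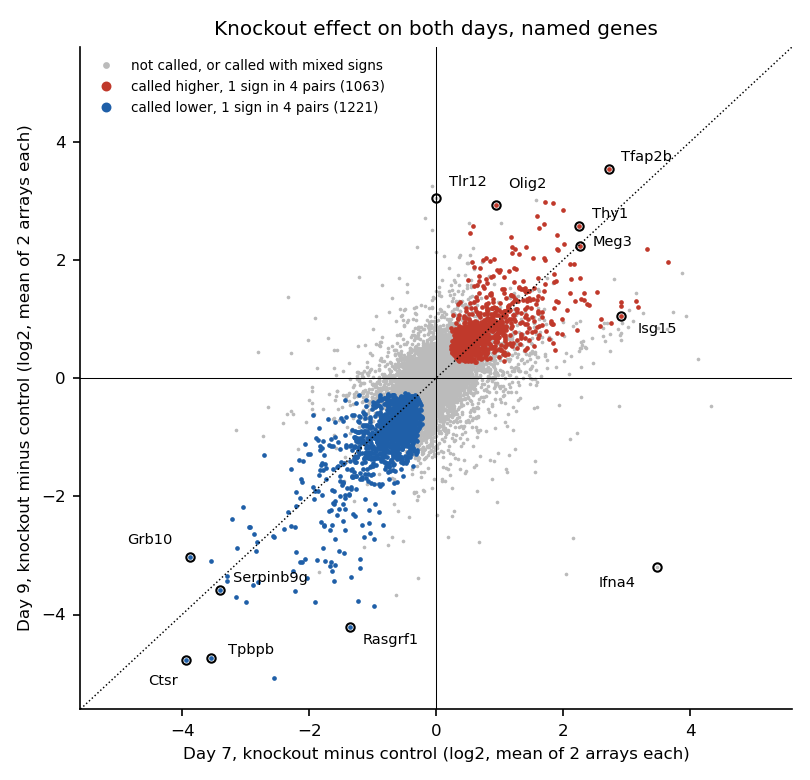
Change on day 7 (horizontal axis) and day 9 (vertical axis), knockout minus control in log2 units, for the 15038 genes with a symbol. Red points are the 1063 genes called higher with 1 sign in all 4 pairs and blue points the 1221 called lower; the dotted line marks equal change, on which Meg3 and Serpinb9g nearly lie, while Rasgrf1 and Olig2 changed more on day 9.

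The genes with the smallest p-values were members of the Serpinb9 family on chromosome 13. Serpins of this family are inhibitors of granzymes and related proteases, and the mouse has many copies of the gene, several of them active in the placenta. Serpinb9e, Serpinb9f and Serpinb9g were the closest to each other in behaviour, and the 250 bases upstream of each start are shown because they show how alike these copies are. The sequences are from RefSeq on GRCm38.p6, 5′ to 3′ on the strand of the gene, and the capitals mark the longest run of 60 bases that all 3 share.
Serpinb9e, chr13:33249358-33249607, plus strand: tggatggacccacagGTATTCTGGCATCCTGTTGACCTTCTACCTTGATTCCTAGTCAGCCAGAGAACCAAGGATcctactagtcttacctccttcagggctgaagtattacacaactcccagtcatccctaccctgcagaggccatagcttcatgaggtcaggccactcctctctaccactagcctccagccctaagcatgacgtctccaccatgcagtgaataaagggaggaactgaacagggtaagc
Serpinb9f, chr13:33323827-33324076, plus strand: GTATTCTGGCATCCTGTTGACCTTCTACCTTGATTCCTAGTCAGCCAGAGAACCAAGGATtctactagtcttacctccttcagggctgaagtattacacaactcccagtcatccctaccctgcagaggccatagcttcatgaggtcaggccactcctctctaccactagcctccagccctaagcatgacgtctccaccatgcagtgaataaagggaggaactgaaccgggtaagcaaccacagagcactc
Serpinb9g, chr13:33484540-33484789, plus strand: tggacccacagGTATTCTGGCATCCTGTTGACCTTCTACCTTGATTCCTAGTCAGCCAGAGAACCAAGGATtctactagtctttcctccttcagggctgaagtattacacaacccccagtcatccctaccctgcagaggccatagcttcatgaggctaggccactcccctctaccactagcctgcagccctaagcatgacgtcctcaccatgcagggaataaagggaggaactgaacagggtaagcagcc
In local alignments, Serpinb9e and Serpinb9f were identical at 233 of 235 aligned bases (99.1%), Serpinb9e and Serpinb9g at 236 of 246 (95.9%), and Serpinb9f and Serpinb9g at 228 of 239 (95.4%). With copies this close, the array may not separate their RNAs, so the 3 values below may not be independent.

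Serpinb9g lay at 0.19 and -0.14 on day 7 and -0.01 and -0.35 on day 9 in control cells, against -3.62 and -3.12 on day 7 and -3.64 and -3.89 on day 9 in knockout cells. Every knockout array was below every control array, on both days, by a fitted change of -3.49 ± 0.16 SE, adjusted p = 0.000207, n = 4 arrays per genotype, which is an 11.2-fold difference. Serpinb9e fell by a similar amount (-3.37 ± 0.16 SE, adjusted p = 0.000207), and so did Serpinb9f (-3.32 ± 0.14 SE, adjusted p = 0.000207). Serpinb9d (-3.39 ± 0.31, 2 of 4 knockout arrays above background) and Serpinb9c (-3.01 ± 0.24, 3 of 4 above background) fell too, at adjusted p between 0.00192 and 0.00285. Of 11 tested genes in the list of Serpinb9 and neighbouring serpins, 6 fell, 0 rose and 5 did not pass, with a median of -0.91. The 6 falls were counted in each fit that left out 1 array.

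Genes that are normally the mark of the placenta formed most of the other large falls. The placental cathepsins Ctsr, Ctsq and Ctsj are lysosomal proteases of trophoblast, Tpbpb encodes a trophoblast-specific protein, and the prolactin family genes encode hormones of the pregnancy. All of these lie on chromosome 13, in tandem families of similar copies. Ctsr lay at -3.02 and -3.19 on day 7 and -3.27 and -1.95 on day 9 in control cells, against -7.00 and -7.10 on day 7 and -7.15 and -7.61 on day 9 in knockout cells. It was above background on all 4 control arrays and on 0 of 4 knockout arrays, so only a bound can be given: at least 9.20-fold lower in knockout cells (adjusted p = 0.00116). Such a bound sets the control mean against, on each knockout array, the higher of the probe's own signal and the dimmest signal well above background.

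For Tpbpb the bound was at least 11.8-fold lower (adjusted p = 0.00525), with 4 of 4 control and 0 of 4 knockout arrays above background. Ctsq was at least 3.72-fold lower (0.0286), with 3 of 4 control arrays above background. Its call was lost without control day 7 replicate 1, knockout day 7 replicate 1, control day 9 replicate 1 and either knockout day 9 array. Ctsj, measured on all 8 arrays, changed by -2.91 ± 0.46 SE, adjusted p = 0.0122. These were the 4 genes tested of 10 in the list of placental cathepsins and Tpbp genes. A dim gene can enter the test through the control groups alone, so their common direction may partly come from the filter. Control day 9 replicate 2 was the highest array for all 4 of these genes, and without it all 4 were still called, with a list median of -3.36 in place of -3.98. These medians use signals below background and are not measured sizes. Over the scalings the median ran from -3.98 to -1.61, and 3 to 4 falls were called.

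Prl2a1 lay at -1.58 and -1.17 on day 7 and -1.50 and -1.03 on day 9 in control cells, against -4.41 and -4.12 on day 7 and -4.92 and -4.60 on day 9 in knockout cells. The genotypes did not overlap, and the change was -3.19 ± 0.19 SE, adjusted p = 0.000623. Prl7d1 (-3.43 ± 0.54), Prl4a1 (-3.13 ± 0.46), Prl3d2 (-1.77 ± 0.18) and Prl3d1 (-1.33 ± 0.19) fell at adjusted p between 0.00403 and 0.0122. Of 22 prolactin family genes named on the array, 10 were bright enough to be tested. Of these 10, 6 fell and 4 did not pass, and all 10 fitted changes were below 0, with a median of -2.28. A dim gene can enter the test through the control groups alone, so the common sign may partly come from the filter. The list's summed level, on the linear scale relative to the 75th percentile, ran from 2.39 to 8.12 on control arrays and from 0.442 to 1.35 on knockout arrays.

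Regulators and single-copy markers of trophoblast moved the same way. Of 19 tested, 15 fell, 0 rose and 4 did not pass (median -0.90, against 0.03 over genes with a symbol). The list was written with earlier results of these data known, so this count is no independent support for the falls above. Sct, the gut hormone secretin, is on this list as an early trophoblast marker. It lay at 4.96 and 4.67 on day 7 and 4.74 and 4.48 on day 9 in control cells, against 2.52 and 2.31 on day 7 and 2.07 and 2.05 on day 9 in knockout cells, and fell by 5.57-fold (-2.48 ± 0.12 SE, adjusted p = 0.000207). Krt18, a keratin of simple epithelia, lay at 4.91 and 4.72 on day 7 and 4.97 and 4.83 on day 9 in control cells, against 3.52 and 3.29 on day 7 and 3.47 and 3.26 on day 9 in knockout cells (-1.47 ± 0.11 SE, adjusted p = 0.00131). Its partner Krt8 (-1.57 ± 0.17) and Krt7 (-1.98 ± 0.19) also fell, at adjusted p between 0.00331 and 0.00498. In each of these keratins, picked from the list by their small p-values, every knockout array was below every control array. The count of falls was 9 without control day 9 replicate 1 and 10 without knockout day 7 replicate 1 or either knockout day 9 array, and the median stayed between -0.75 and -1.01 in the 8 fits.

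**Figure D2:**
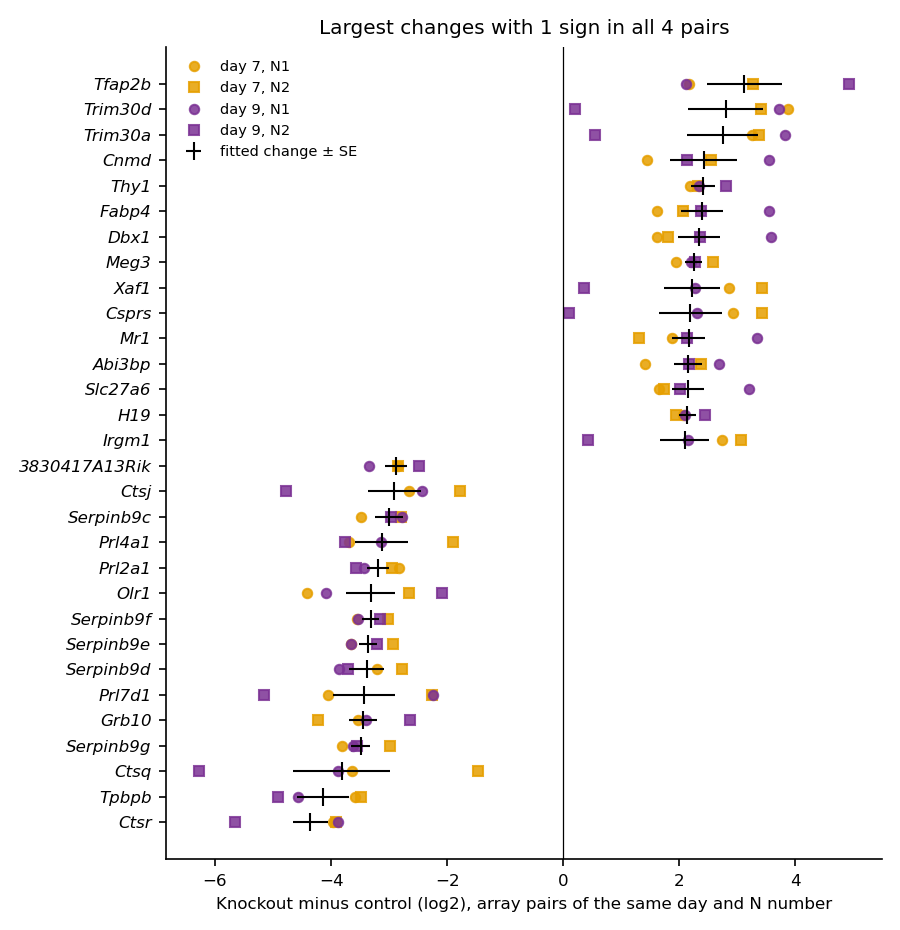
Knockout minus control in log2 units for each of the 4 pairs (colour, day; circle, N1; square, N2) and the fitted change with its standard error (black), for the 15 largest rises and 15 largest falls among called genes with 1 sign. The falls are mostly genes of chromosome 13, and the pair of day 9 N2 lies between 0.10 and 0.55 for Trim30d, Trim30a, Xaf1, Csprs and Irgm1.

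Imprinted genes, expressed from 1 parental copy, changed in both directions. In the Dlk1-Dio3 cluster of chromosome 12 the noncoding RNAs are made from the maternal copy and the coding genes from the paternal one. Meg3, the noncoding RNA of that cluster, lay at 1.07 and 0.42 on day 7 and 0.78 and 0.85 on day 9 in control cells, against 3.01 and 3.01 on day 7 and 2.98 and 3.12 on day 9 in knockout cells. The genotypes did not overlap, and the rise was 4.76-fold (2.25 ± 0.15 SE, adjusted p = 0.000835). Mirg, a host of microRNAs in the same cluster, rose too (1.54 ± 0.18 SE, adjusted p = 0.00649). Dio3, which inactivates thyroid hormone, fell (-1.47 ± 0.22 SE, adjusted p = 0.0115), with 3 of 4 knockout arrays above background, as did Begain at the edge of the cluster (-0.89 ± 0.15 SE, adjusted p = 0.0142). Of 5 members tested, 2 rose, 2 fell and 1 did not pass.

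H19, the growth-restraining noncoding RNA beside Igf2, lay at 3.66 and 3.89 on day 7 and 3.82 and 4.00 on day 9 in control cells, against 5.72 and 5.83 on day 7 and 5.92 and 6.45 on day 9 in knockout cells (2.14 ± 0.15 SE, adjusted p = 0.00106). Grb10, an adaptor that dampens insulin and growth factor receptors, lay at 0.88 and 0.83 on day 7 and 0.41 and -0.07 on day 9 in control cells, against -2.65 and -3.40 on day 7 and -2.99 and -2.72 on day 9 in knockout cells. It was 10.9-fold lower in knockout cells (-3.45 ± 0.24 SE, adjusted p = 0.00116), although chromosome 11, where it lies, was otherwise shifted upwards as described below. Zim1, a zinc finger gene, changed by -2.63 ± 0.30 SE, adjusted p = 0.00636, with 3 of 4 knockout arrays above background. Slc22a18, a transporter gene, changed by -1.63 ± 0.18 SE, adjusted p = 0.00547. Rasgrf1, an exchange factor for Ras in neurons, was at -4.78 and -4.97 on day 7 and -2.39 and -2.05 on day 9 in control cells, against -5.92 and -6.55 on day 7 and -6.39 and -6.47 on day 9 in knockout cells. Its fall (-2.79 ± 0.54 SE, adjusted p = 0.0209) came mainly from day 9, where the control level was higher; it was above background on 3 control arrays and 1 knockout array and lost its call without control day 9 replicate 1 or either knockout day 9 array.

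Of 34 other imprinted genes tested, 7 rose, 8 fell and 19 did not pass. Their median was 0.07 (0.04 to 0.24 over the other scalings). The counts varied with the arrays: 2 rose and 6 fell without knockout day 7 replicate 1, 2 and 4 without control day 9 replicate 1, 3 and 4 without either knockout day 9 array, and 4 and 6 without control day 7 replicate 1 or knockout day 7 replicate 2. Of 16 enzymes and regulators of DNA methylation and imprints, 0 rose and 1 fell. That gene, Dnmt3l, a partner of the enzymes that write DNA methylation, lay at 1.02 and 0.49 on day 7 and 0.43 and -0.29 on day 9 in control cells, against 0.40 and -0.37 on day 7 and -1.80 and -1.48 on day 9 in knockout cells (-1.23 ± 0.29 SE, adjusted p = 0.0363). Its genotypes overlapped, and its call was lost in 6 of the 8 fits that left out 1 array.

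Several genes of the sex chromosomes changed. The Xlr3 and Xlr4 genes are X-linked copies expressed in lymphocytes, germ cells and brain. Xlr4a lay at -0.78 and -0.78 on day 7 and -1.49 and -1.47 on day 9 in control cells, against 1.13 and 1.12 on day 7 and 0.87 and 0.53 on day 9 in knockout cells (2.04 ± 0.11 SE, adjusted p = 0.00051). Xlr3a (2.04 ± 0.12 SE, adjusted p = 0.000593), Xlr4b (2.01 ± 0.15 SE, adjusted p = 0.00119) and Xlr3b (1.86 ± 0.13 SE, adjusted p = 0.00103) rose with it. In all 4 genes, picked by their small p-values, every knockout array was above every control array. The copies are close in sequence and their probes may share targets. Of 12 Xlr and Rhox genes tested, 6 rose, 3 fell and 3 did not pass. Fthl17a, an X-linked ferritin-like gene, lay at 1.10 and 0.96 on day 7 and 0.60 and 0.39 on day 9 in control cells, against -1.65 and -1.42 on day 7 and -2.0 and -2.37 on day 9 in knockout cells and was 6.15-fold lower in knockout cells (-2.62 ± 0.12 SE, adjusted p = 0.000207). On the same chromosome 3830417A13Rik, of no described role, changed by -2.88 ± 0.19 SE, adjusted p = 0.00087.

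Both lines were labelled male, and of 6 tested Y-linked genes 3 rose, 1 fell and 2 did not pass. Ddx3y, an RNA helicase, lay at -0.57 and -0.51 on day 7 and -0.58 and -0.56 on day 9 in control cells, against 0.31 and 0.36 on day 7 and 0.75 and 0.47 on day 9 in knockout cells (1.03 ± 0.11 SE, adjusted p = 0.0052). Eif2s3y, a translation initiation factor subunit, rose by 0.91 ± 0.09 SE, adjusted p = 0.004. Uty, a histone demethylase relative, rose by 1.13 ± 0.22 SE, adjusted p = 0.0212, with 2 of 4 control arrays above background, and lost its call without either knockout day 9 array and with normexp background correction. The fall was that of Gm20877 (-1.80 ± 0.25 SE, adjusted p = 0.00999; 2 of 4 knockout arrays above background), named after its values were seen. In Ddx3y and Eif2s3y the 4 control arrays lay within a narrow range, below all knockout arrays.

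Outside these families, Skor1 was among the most uniform falls. Skor1, a transcriptional corepressor of the dorsal spinal cord, lay at 2.51 and 2.48 on day 7 and 2.66 and 2.34 on day 9 in control cells, against 0.82 and 0.56 on day 7 and 0.58 and 0.46 on day 9 in knockout cells (-1.89 ± 0.12 SE, adjusted p = 0.000721). Olr1, a scavenger receptor for oxidised lipoprotein, was at least 3.49-fold lower (adjusted p = 0.00809), with 3 of 4 control and 0 of 4 knockout arrays above background.

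Tfap2b, a transcription factor of neural crest, kidney and dorsal interneurons, rose. It lay at -4.13 and -6.57 on day 7 and -4.79 and -6.50 on day 9 in control cells, against -1.96 and -3.31 on day 7 and -2.67 and -1.56 on day 9 in knockout cells (3.12 ± 0.65 SE, adjusted p = 0.0248). The pairs ranged from 2.12 to 4.94, 2 of 4 control arrays were above background so that the size is uncertain, the change was 1.41 with normexp background correction, and the call was lost without knockout day 7 replicate 1, control day 7 replicate 2, control day 9 replicate 1 or either knockout day 9 array. Thy1, a surface glycoprotein of neurons and fibroblasts, was steadier at -1.11 and -1.84 on day 7 and -1.35 and -1.52 on day 9 in control cells, against 1.07 and 0.48 on day 7 and 0.99 and 1.28 on day 9 in knockout cells. Its rise was 5.32-fold (2.41 ± 0.21 SE, adjusted p = 0.00253), with no overlap. Fabp4, a fatty acid carrier of adipocytes and vessels, rose by 2.40 ± 0.36 SE, adjusted p = 0.0115 and Abi3bp, an extracellular matrix gene, by 2.16 ± 0.24 SE, adjusted p = 0.00567, each with 1 of 4 control arrays above background. With normexp background correction these changes were 0.71 and 0.50, and neither was called.

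Cnmd, a cartilage matrix gene, was at least 2.16-fold higher in knockout cells (adjusted p = 0.0356), Slc27a6, a fatty acid transporter, at least 1.51-fold (0.00777) and Mr1, a molecule that presents metabolites to T cells, at least 1.36-fold (0.00838). In these 3 genes 0 of 4 control arrays were above background, the call of Cnmd was lost in 6 of the 8 fits that left out 1 array, and all 3 calls were lost with normexp background correction.

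Genes of fibroblasts and mural cells were higher in knockout cells. Of 26 tested, 13 rose, 0 fell and 13 did not pass, with a median of 0.66. Col1a1, a chain of type I collagen on chromosome 11, lay at 2.18 and 1.35 on day 7 and 2.05 and 2.21 on day 9 in control cells, against 3.34 and 2.85 on day 7 and 3.75 and 3.53 on day 9 in knockout cells (1.42 ± 0.20 SE, adjusted p = 0.0101). Pdgfrb, the receptor that marks mural cells, rose by 1.17 ± 0.13 SE, adjusted p = 0.00524, and Loxl1, which crosslinks elastin, by 1.04 ± 0.11 SE, adjusted p = 0.00541. Mfap4, a microfibril protein on chromosome 11 and outside the list, lay at 0.47 and 0.50 on day 7 and 1.27 and 1.28 on day 9 in control cells, against 2.15 and 1.72 on day 7 and 2.86 and 2.62 on day 9 in knockout cells (1.46 ± 0.12 SE, adjusted p = 0.00216). The summed level of the list was 233 to 444 on control arrays and 290 to 495 on knockout arrays, overlapping across days. The count was 7 without knockout day 7 replicate 1, 6 without either day 9 array of replicate 1, and 8 when knockout day 9 replicate 2 was left out.

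Markers of other cell types that such cultures could hold changed less uniformly. Of 17 astrocyte and radial glia genes 1 rose, the transcription factor Nfib (0.62 ± 0.15 SE, adjusted p = 0.0381), while 5 rose with median centring and 0 with normexp background correction (limma). Of 16 oligodendrocyte lineage genes 4 rose, among them Cldn11, a tight junction gene of myelin, at -3.04 and -3.52 on day 7 and -2.78 and -2.75 on day 9 in control cells, against -1.30 and -1.49 on day 7 and -0.94 and -1.32 on day 9 in knockout cells (1.76 ± 0.15 SE, adjusted p = 0.00237), and Ugt8a, an enzyme of myelin lipid synthesis (0.33 ± 0.08 SE, adjusted p = 0.0399, lost in all 8 fits that left out 1 array). The other calls of that list were Olig1 and Olig2. Of 18 neural crest and sensory genes 3 rose, among them Tfap2b and the myelin gene Pmp22 on chromosome 11 (1.02 ± 0.19 SE, adjusted p = 0.0187), and 3 fell, among them Phox2a (-1.87 ± 0.17 SE, adjusted p = 0.00287) and Runx1 (-0.86 ± 0.15 SE, adjusted p = 0.0171). Of 13 endothelial and blood genes 1 rose and 3 fell, and of 13 muscle genes 2 rose and 0 fell. The called share was 5.88% of astrocyte, 25% of oligodendrocyte and 33.3% of neural crest genes. It was 30.8% of endothelial and blood genes and 15.4% of muscle genes, against 15.3% of all genes with a symbol. Nfib lost its call in 6 of the 8 fits without 1 array, Pmp22 without knockout day 7 replicate 1 or either knockout day 9 array, and Runx1 without knockout day 9 replicate 2. Across those fits the oligodendrocyte rises numbered 1 to 3, the neural crest rises 0 to 3, the endothelial and blood falls 1 to 3 and the muscle rises 0 to 2. The part of other cell types in the changes described here was not tested.

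Interferon-response genes were higher in knockout cells, but the fitted size was smaller on day 9 than on day 7 and depended on 1 array. As for all genes tested, the interaction of day and genotype was not called for any of them. These genes are switched on by interferons through a complex that holds Stat2 and Irf9, which binds a promoter element of repeated GAAA. The upstream bases of 3 called members are shown because they hold that element; capitals mark every GAAANNGAAA on either strand (TTTCNNTTTC on the other), with overlapping matches joined. They are from RefSeq on GRCm38.p6, 5′ to 3′ on the strand of the gene, 250 bases before the start.
Isg15, chr4:156200819-156201068, minus strand: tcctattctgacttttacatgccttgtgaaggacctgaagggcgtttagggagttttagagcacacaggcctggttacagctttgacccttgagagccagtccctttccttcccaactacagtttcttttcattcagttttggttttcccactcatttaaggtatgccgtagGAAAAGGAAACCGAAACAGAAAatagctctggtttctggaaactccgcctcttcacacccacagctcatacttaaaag
Gbp3, chr3:142559794-142560043, plus strand: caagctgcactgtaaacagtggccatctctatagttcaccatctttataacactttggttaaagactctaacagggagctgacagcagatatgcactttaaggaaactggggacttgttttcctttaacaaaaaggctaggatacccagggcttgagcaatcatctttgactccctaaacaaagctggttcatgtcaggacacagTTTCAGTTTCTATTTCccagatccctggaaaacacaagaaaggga
Oas1a, chr5:120907526-120907775, minus strand: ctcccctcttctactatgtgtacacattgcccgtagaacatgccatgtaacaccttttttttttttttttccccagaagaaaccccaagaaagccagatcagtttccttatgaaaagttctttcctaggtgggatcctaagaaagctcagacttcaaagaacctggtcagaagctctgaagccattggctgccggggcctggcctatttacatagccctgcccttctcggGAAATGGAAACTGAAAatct
Isg15 held 3 matches, and Gbp3 and Oas1a 2 each. The motif stood in 978 of 32851 such windows in the whole table (2.98%). By gene, it stood in 372 of the 11958 tested genes with a window (3.11%), in 10 of 25 tested members of the interferon list (40%) and in 6 of its 12 called members (50%). Among other genes called higher it stood in 31 of 837 (3.70%). A match describes the letters of the window and is not a measured site.

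Isg15, an interferon-induced ubiquitin-like protein, lay at 3.39 and 3.09 on day 7 and 5.87 and 7.43 on day 9 in control cells, against 6.14 and 6.15 on day 7 and 7.66 and 7.74 on day 9 in knockout cells. The day 7 arrays were separated by nearly 3 log2 units, while the control arrays on day 9 were high, replicate 2 most of all. The fitted change was 1.98 ± 0.45 SE, adjusted p = 0.0319, with pair differences of 2.75 and 3.06 on day 7 and of 1.79 and 0.31 on day 9. Irgm1, an immunity GTPase on chromosome 11, lay at 0.57 and 0.09 on day 7 and 2.61 and 4.12 on day 9 in control cells, against 3.31 and 3.16 on day 7 and 4.77 and 4.54 on day 9 in knockout cells (2.10 ± 0.42 SE, adjusted p = 0.023). Trim30a (2.75 ± 0.62 SE, adjusted p = 0.0305), Trim30d (2.80 ± 0.64 SE, adjusted p = 0.0324), Xaf1 (2.22 ± 0.48 SE, adjusted p = 0.0274), Gbp3 (2.07 ± 0.49 SE, adjusted p = 0.0346) and Ifi35 (1.99 ± 0.39 SE, adjusted p = 0.0208) also had their lowest difference in the pair of day 9 replicate 2. Csprs, a gene of chromosome 1, rose by 2.19 ± 0.54 SE, adjusted p = 0.0385 and was lowest in that pair too. None of these genes kept its call in every fit that left out 1 array. Irgm1 lost it without control day 7 replicate 1, knockout day 7 replicate 1, control day 9 replicate 1 or knockout day 9 replicate 1, and Ifi35 without knockout day 7 replicate 1, control day 9 replicate 1 or either knockout day 9 array. Isg15, Gbp3, Trim30a, Trim30d and Csprs lost it without any array other than control day 9 replicate 2, and Xaf1 without any array other than control day 7 replicate 2 and control day 9 replicate 2.

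Of 33 interferon-stimulated genes tested, all 33 fitted changes were above 0 (median 1.74), 14 were called higher, 0 lower, and 8 of the 14 had 1 sign in all 4 pairs. Of the 14, 5 lie on chromosome 11, whose genes were shifted upwards as a whole. With that chromosome left out of the fit 6 of 27 were called (median 1.67), and with median centring 26 of 33. The median was 2.53 on day 7 and 0.83 on day 9. Without control day 9 replicate 2, 32 of the 33 were called and the median was 2.26. Without any other array the count fell to between 0 and 2: it was 1 without control day 7 replicate 1 or knockout day 7 replicate 2, 2 without control day 7 replicate 2, and 0 without knockout day 7 replicate 1, control day 9 replicate 1 or either knockout day 9 array. In control cells the summed level of the list was 65.1 and 49.3 on day 7 and 272 and 738 on day 9. The knockout sums were 307 and 282 on day 7 and 843 and 723 on day 9.

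Genes of antigen presentation by MHC class I, which interferon also raises, behaved likewise. Of 17 tested, 4 rose and 13 did not pass (median 1.04), and the count was 16 without control day 9 replicate 2 and 11 with median centring. It was 1 without control day 7 replicate 1, knockout day 7 replicate 1, control day 9 replicate 1, knockout day 9 replicate 1 or control day 7 replicate 2, and 2 without knockout day 7 replicate 2 or knockout day 9 replicate 2. The peptide transporter gene Tap2 lay at -1.83 and -1.13 on day 7 and -0.53 and 1.20 on day 9 in control cells, against 1.13 and 0.44 on day 7 and 2.58 and 1.49 on day 9 in knockout cells (1.98 ± 0.43 SE, adjusted p = 0.0284). Knockout cells on day 9 and control day 9 replicate 2 held the highest levels, and the call was lost in 5 of the 8 fits without 1 array, those without either day 7 control array, knockout day 7 replicate 1 or either array of replicate 1 on day 9.

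**Figure D3:**
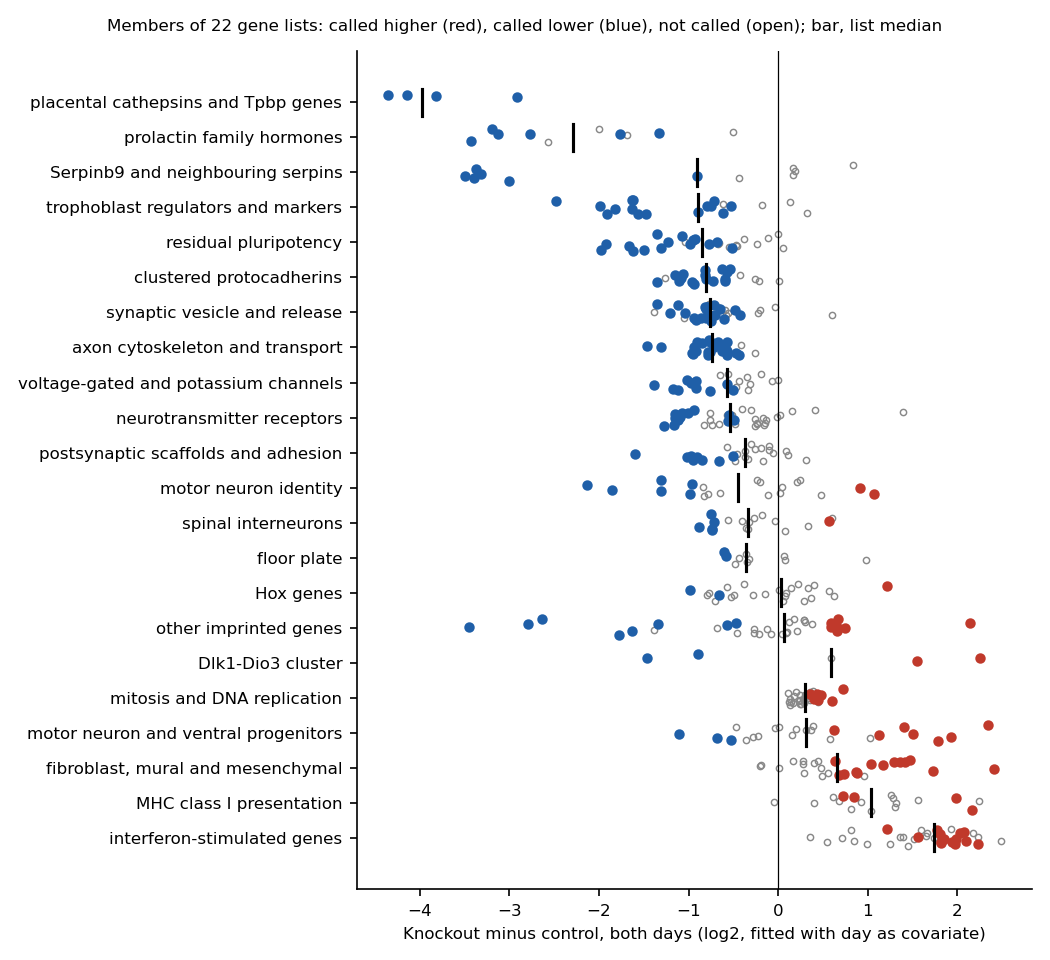
Fitted change of each tested member of 22 gene lists in log2 units, knockout minus control over both days. Placental, serpin, pluripotency and neuronal lists lie to the left, with medians from -3.98 (placental cathepsins and Tpbp genes) to -0.37 (postsynaptic genes), and fibroblast, MHC class I and interferon lists to the right, with medians of 0.66, 1.04 and 1.74. The median of -3.98 uses signals below background and is not a measured size.

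Genes of the neuronal cytoskeleton, axon and synapse were lower in knockout cells. Of 29 genes of the axon cytoskeleton and transport, 24 fell, 0 rose and 5 did not pass (median -0.74), and all 29 fitted changes were below 0. Stmn2, a regulator of axonal microtubules, lay at 6.34 and 6.48 on day 7 and 6.07 and 5.87 on day 9 in control cells, against 5.74 and 5.76 on day 7 and 4.79 and 4.75 on day 9 in knockout cells (-0.93 ± 0.14 SE, adjusted p = 0.0107). Every knockout array was below every control array, by more on day 9. Kif1a, the motor that carries synaptic vesicle precursors, lay at 4.95 and 4.95 on day 7 and 5.48 and 5.26 on day 9 in control cells, against 4.31 and 4.27 on day 7 and 4.17 and 4.22 on day 9 in knockout cells (-0.92 ± 0.13 SE, adjusted p = 0.0101). The motors Kif5c (-0.76 ± 0.11 SE, adjusted p = 0.0101) and Kif3c (-0.84 ± 0.12 SE, adjusted p = 0.0105) fell as well. Leaving out replicate 1 gave 14 falls for the day 7 knockout, 12 for the day 9 control and 9 for the day 9 knockout, leaving out replicate 2 of the day 9 knockout gave 13, and the median stayed between -0.65 and -0.78 in the 8 fits.

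Of 32 genes of synaptic vesicles and release, 20 fell, 0 rose and 12 did not pass (median -0.76). Sv2a, a vesicle glycoprotein, lay at -0.14 and -0.41 on day 7 and 0.48 and 0.33 on day 9 in control cells, against -0.94 and -1.05 on day 7 and -0.74 and -0.77 on day 9 in knockout cells (-0.94 ± 0.13 SE, adjusted p = 0.00936). Syn1, which tethers vesicles, changed by -0.78 ± 0.12 SE, adjusted p = 0.011, and Syt11, a synaptotagmin, by -0.70 ± 0.11 SE, adjusted p = 0.0115. The genotypes did not overlap in any of these 3 genes, which were picked from the list by their small p-values. Without control day 9 replicate 1 the count was 10, without knockout day 9 replicate 1 it was 7 and without knockout day 9 replicate 2 it was 12.

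Channels and receptors followed. Of 21 voltage-gated and potassium channel genes, 10 fell and 0 rose (median -0.57), among them the large-conductance channel Kcnma1 (-1.12 ± 0.15 SE, adjusted p = 0.00901), the A-type channel Kcnd3 (-1.02 ± 0.17 SE, adjusted p = 0.0147) and the calcium channel subunit Cacna2d2 (-0.97 ± 0.14 SE, adjusted p = 0.0107). Of 36 neurotransmitter receptor genes, 13 fell and 0 rose (median -0.54). The AMPA receptor subunit Gria4 changed by -1.27 ± 0.18 SE, adjusted p = 0.00986 and the NMDA receptor subunits Grin1 by -1.11 ± 0.17 SE, adjusted p = 0.0119 and Grin2b by -1.16 ± 0.18 SE, adjusted p = 0.012. Of 25 postsynaptic and adhesion genes, 8 fell and 0 rose (median -0.37), among them Lrrtm3 (-1.01 ± 0.14 SE, adjusted p = 0.00991), Lrrtm2 (-0.84 ± 0.12 SE, adjusted p = 0.0105) and Dlgap2, a scaffold (-1.60 ± 0.23 SE, adjusted p = 0.0107, 1 of 4 knockout arrays above background).

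These 3 counts also depended on the scaling and the arrays. With median centring 6 channel and 5 postsynaptic genes fell, and with normexp background correction 5 channel, 8 receptor and 5 postsynaptic genes. Channel calls were 5 with replicate 1 of the day 7 control left out, 6 with that of the day 7 knockout left out, and 4 without control day 9 replicate 1 or either knockout day 9 array. Receptor calls were 5 without control day 9 replicate 1 or knockout day 9 replicate 2, and 7 when knockout day 9 replicate 1 was left out. Postsynaptic calls were 3 with the day 9 control of replicate 1 left out, and 4 with the day 9 knockout of replicate 2 left out. They were 5 when replicate 1 of the knockout was left out on either day.

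Clustered protocadherins, adhesion proteins that give neurons a surface identity, had among the highest shares of falls. Of 21 tested, 16 fell, 0 rose and 5 did not pass (median -0.81). Pcdhb7 lay at 0.44 and 0.07 on day 7 and 0.18 and -0.20 on day 9 in control cells, against -0.60 and -0.95 on day 7 and -0.95 and -1.27 on day 9 in knockout cells (-1.06 ± 0.15 SE, adjusted p = 0.0105), Pcdha9 changed by -1.08 ± 0.14 SE, adjusted p = 0.00777, Pcdhb16 by -1.11 ± 0.17 SE, adjusted p = 0.012 and Pcdha8 by -0.94 ± 0.15 SE, adjusted p = 0.0119. The members are tandem copies on chromosome 18 and their probes may share targets. The count was 8 without control day 9 replicate 1 or either knockout day 9 array. The median over the 8 fits ran from -0.69 to -0.82.

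Motor neuron identity genes were split. Of 20 tested, 2 rose, 6 fell and 12 did not pass (median -0.44 over the list). Chat, which makes acetylcholine, lay at 0.25 and -0.01 on day 7 and -0.97 and -1.57 on day 9 in control cells, against -0.87 and -0.57 on day 7 and -2.45 and -2.26 on day 9 in knockout cells (-0.96 ± 0.16 SE, adjusted p = 0.0154). Each pair was negative, though control cells on day 9 lay below knockout cells on day 7, since the level fell with time in both genotypes. Slc18a3, which loads acetylcholine into vesicles, lay at 4.31 and 4.41 on day 7 and 3.62 and 3.14 on day 9 in control cells, against 3.65 and 4.02 on day 7 and 1.78 and 2.10 on day 9 in knockout cells (-0.98 ± 0.22 SE, adjusted p = 0.032).

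Lhx3, a factor of the medial motor column, moved the other way, at 3.00 and 3.20 on day 7 and 1.60 and 1.43 on day 9 in control cells, against 3.98 and 4.06 on day 7 and 2.29 and 2.56 on day 9 in knockout cells (0.91 ± 0.11 SE, adjusted p = 0.00644). Aldh1a2, the retinoic acid enzyme of limb-level motor neurons, was 2.10-fold higher (1.07 ± 0.10 SE, adjusted p = 0.00331). Isl1, a factor that all motor neurons pass through, did not pass (-0.65 ± 0.31 SE, adjusted p = 0.190), and its pair of day 9 replicate 2 was at 0.42 against -0.91, -0.52 and -1.60 in the others. The falls numbered 2 without knockout day 7 replicate 1, control day 9 replicate 1 or knockout day 9 replicate 2, and 1 when knockout day 9 replicate 1 was left out. Chat lost its call without knockout day 9 replicate 1. Slc18a3 lost its call in 6 of the 8 fits that left out 1 array, all but those without control day 7 replicate 1 or knockout day 7 replicate 2.

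Several progenitor factors were higher in knockout cells. Of 23 progenitor genes tested, 7 rose, 3 fell and 13 did not pass (median 0.31). Taken by day, the median change of this list was -0.06 on day 7 and 0.61 on day 9. Its pooled rise therefore came from day 9, and a difference between the days was not tested for the list. Olig2, which defines the motor neuron progenitor, lay at 0.50 and 0.75 on day 7 and -3.21 and -2.77 on day 9 in control cells, against 1.48 and 1.64 on day 7 and -0.64 and 0.52 on day 9 in knockout cells (1.93 ± 0.44 SE, adjusted p = 0.0311). It dropped from day 7 to day 9 in control cells and less so in knockout cells, with an unadjusted interaction p of 0.00795 (limma) that did not pass over all genes. Olig1 had the same shape (1.78 ± 0.33 SE, adjusted p = 0.0186). Dbx1, a factor of more dorsal progenitors, lay at -3.92 and -4.12 on day 7 and -7.71 and -6.25 on day 9 in control cells, against -2.31 and -2.31 on day 7 and -4.12 and -3.89 on day 9 in knockout cells (2.34 ± 0.36 SE, adjusted p = 0.012), with 2 of 4 control arrays above background. Its relative Dbx2 (1.40 ± 0.17 SE, adjusted p = 0.00696, 2 of 4) and Pax6 (1.51 ± 0.22 SE, adjusted p = 0.011, 3 of 4) rose too. With normexp background correction the changes of Dbx1 (0.73) and Dbx2 (0.56) were not called and that of Pax6 was 0.77. In the main fit Nkx6-2 fell (-0.68 ± 0.12 SE, adjusted p = 0.0163), and its change was -0.58 with normexp background correction. Olig2 was not called without control day 7 replicate 1, either control day 9 array or either knockout day 9 array. Olig1 was not called without knockout day 9 replicate 1. The rises numbered 4 without control day 9 replicate 1 or knockout day 9 replicate 1, and the falls 1 with median centring and without knockout day 7 replicate 1, control day 9 replicate 1 or either knockout day 9 array.

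In neighbouring lists calls were few and often rested on single arrays. The called share was 18.2% of floor plate, 35.3% of spinal interneuron and 12.5% of Hox genes, against 15.3% of all genes with a symbol. Of 11 floor plate genes 2 fell, Shh (-0.61 ± 0.13 SE, adjusted p = 0.026), the ventral signal, and Slit1 (-0.58 ± 0.14 SE, adjusted p = 0.0394), a guidance cue, and both lost the call with median centring and without most single arrays. Of 17 spinal interneuron genes 5 fell, among them Gad1 (-0.89 ± 0.22 SE, adjusted p = 0.0386) and Gad2 (-0.73 ± 0.17 SE, adjusted p = 0.0321), which make GABA, and 1 rose, Bhlhe22 (0.57 ± 0.13 SE, adjusted p = 0.0293). With median centring or with normexp background correction 2 of the 17 fell. Gad1, Gad2 and Bhlhe22 lost the call in 6 of the 8 fits that left out 1 array. Of 24 Hox genes 1 rose, Hoxc6 (1.22 ± 0.29 SE, adjusted p = 0.0344; 4 rose with median centring), and 2 fell, Hoxd3 (-0.98 ± 0.11 SE, adjusted p = 0.00565) and Hoxd4 (-0.66 ± 0.13 SE, adjusted p = 0.0205). Hoxd3 was called in all 8 such fits, Hoxc6 in 2 and Hoxd4 in 4. Of the 24 Hox genes, 8 lie on chromosome 11, whose genes were shifted upwards as a whole. The median was 0.03 over all 24 and -0.43 over the 16 on other chromosomes.

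**Figure D4:**
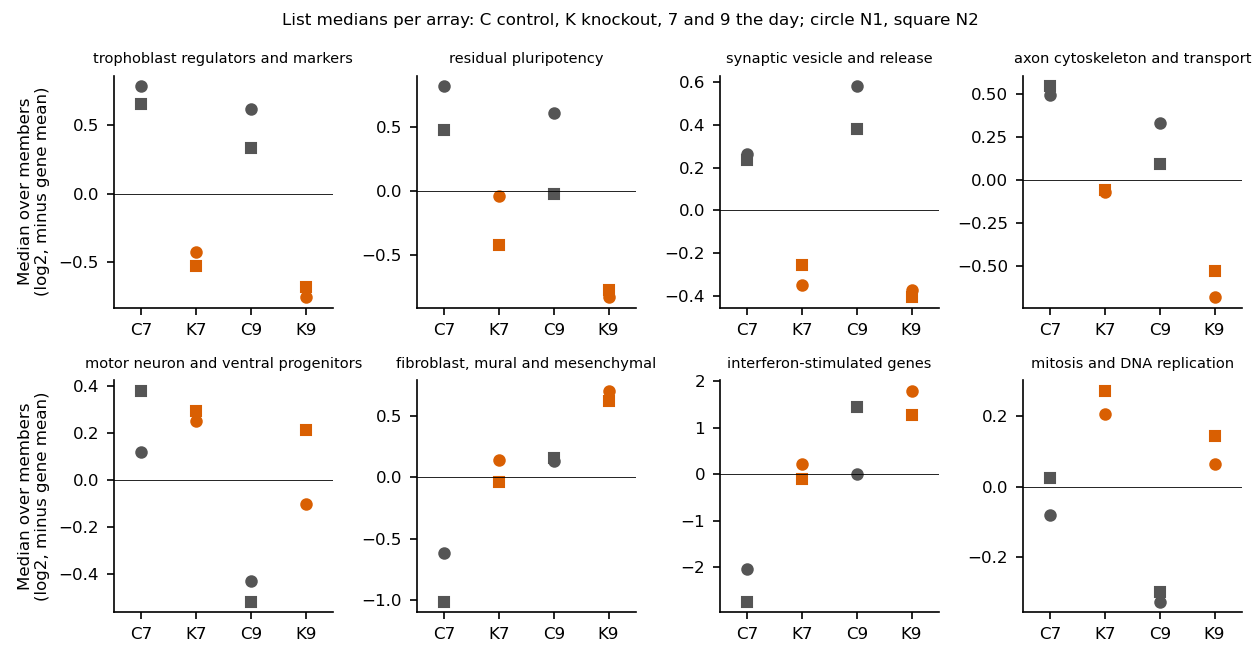
Median of 8 gene lists on each array, in log2 units after subtracting each gene's mean over the 8 arrays (C, control; K, knockout; number, day; circle, N1; square, N2). Synaptic, axonal, trophoblast and mitosis lists separate the genotypes within each day, and the interferon list does so on day 7 while control day 9 replicate 2 lies at 1.44, between the knockout arrays of that day at 1.80 and 1.27.

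Genes of mitosis and DNA replication were slightly higher in knockout cells. All 33 tested had a fitted change above 0 (median 0.30), 7 were called higher and 0 lower. Mki67, the common proliferation marker, did not pass (0.14 ± 0.11 SE, adjusted p = 0.400). Of the 7 calls, 3 lie on chromosome 11. They are Top2a, a topoisomerase of dividing cells, at 2.97 and 3.14 on day 7 and 2.86 and 2.90 on day 9 in control cells, against 3.50 and 3.67 on day 7 and 3.41 and 3.67 on day 9 in knockout cells (0.60 ± 0.11 SE, adjusted p = 0.0177), Cdc6, which licenses replication origins (0.73 ± 0.14 SE, adjusted p = 0.0191), and Birc5, a mitotic regulator (0.48 ± 0.12 SE, adjusted p = 0.0388). The kinesin Kif20a, on chromosome 18, rose by 0.45 ± 0.10 SE, adjusted p = 0.0315. Top2a lost its call without control day 9 replicate 1 or knockout day 9 replicate 2, Cdc6 in 4 of the 8 fits without 1 array, and Birc5 and Kif20a in 7. With chromosome 11 left out of the fit 2 of 30 genes were called higher, with a median of 0.29. The count was 23 with median centring, and 0 to 4 when 1 array was left out: 3 without either control day 7 array, 1 without knockout day 7 replicate 1 or knockout day 9 replicate 1, 0 without control day 9 replicate 1 or knockout day 9 replicate 2, 2 without control day 9 replicate 2 and 4 when knockout day 7 replicate 2 was left out.

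Chromosome 11 stood out among the chromosomes. Of 1251 tested genes with a symbol on it, 383 were called higher (30.6%) and 26 lower, against 697 higher (5.06%) and 1197 lower of the 13787 genes elsewhere. The median change was 0.34 on chromosome 11 and 0.01 elsewhere, and 972 of the 1251 genes (77.7%) had a fitted change above 0, against 51.5% elsewhere. In the 4 pairs the chromosome's median was 0.30 and 0.27 on day 7 and 0.37 and 0.36 on day 9, while the median of the other genes ran from -0.04 to 0.03. Over the other autosomes and the X chromosome, the share called higher ran from 4.01% to 8.77%.

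Besides Mfap4, the genes with the smallest p among the rises held Igfbp4 and Ccdc69 of that chromosome. Igfbp4, a binding protein of insulin-like growth factors, lay at -1.27 and -1.20 on day 7 and -1.15 and -1.20 on day 9 in control cells, against -0.12 and -0.16 on day 7 and -0.22 and -0.22 on day 9 in knockout cells (1.03 ± 0.09 SE, adjusted p = 0.00237). Ccdc69, a spindle regulator, rose by 1.42 ± 0.11 SE, adjusted p = 0.00178 with 1 of 4 control arrays above background. With chromosome 11 left out of the fit, 3230 genes and probes were called, 953 higher and 2277 lower. Of the 256 rises called in each of the 8 fits without 1 array, 183 had a symbol, and 70 of these were on chromosome 11. The karyotype of the lines was not measured here.

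**Figure D5:**
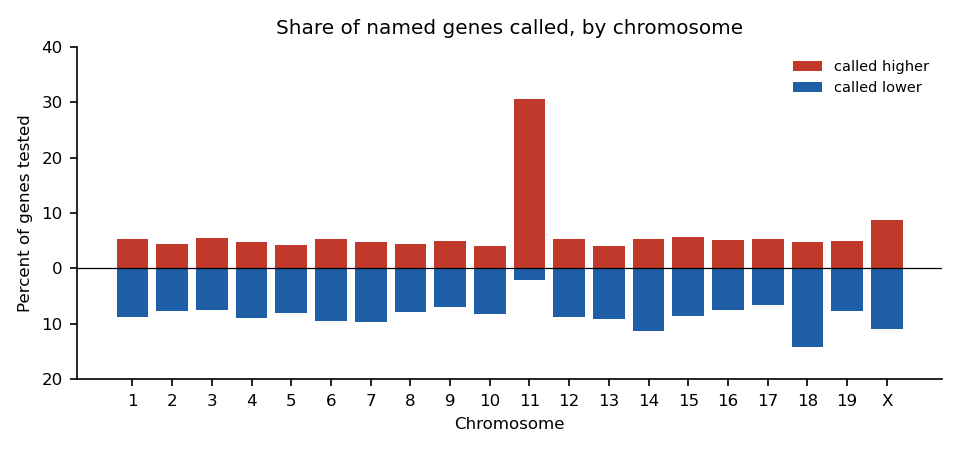
Percentage of tested genes with a symbol that were called higher (red, upwards) or lower (blue, downwards) in knockout cells, by chromosome. Chromosome 11 has 30.6% called higher and few called lower, while no other chromosome drawn exceeds 8.77% called higher.

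Genes of the pluripotent state were lower in knockout cells. Of 26 tested, 15 fell, 0 rose and 11 did not pass (median -0.85). Pou5f1, the central pluripotency factor, lay at -2.72 and -2.75 on day 7 and -2.72 and -3.77 on day 9 in control cells, against -3.70 and -4.50 on day 7 and -5.60 and -4.81 on day 9 in knockout cells (-1.66 ± 0.31 SE, adjusted p = 0.0189). L1td1, an RNA-binding protein of stem cells, lay at 1.23 and 1.04 on day 7 and 0.81 and 0.61 on day 9 in control cells, against 0.08 and -0.12 on day 7 and -0.18 and -0.37 on day 9 in knockout cells (-1.07 ± 0.11 SE, adjusted p = 0.00474), with no overlap. Lefty1 (-1.97 ± 0.23 SE, adjusted p = 0.00628) and Gdf3 (-1.50 ± 0.25 SE, adjusted p = 0.0146), ligands of the Nodal pathway, and Utf1 (-0.98 ± 0.18 SE, adjusted p = 0.0177) fell as well. The list's summed level fell with time too, from 27.1 and 23.1 on day 7 to 20.1 and 15.1 on day 9 in control cells, and was 17.4 and 15.4 on day 7 and 9.58 and 10.3 on day 9 in knockout cells. Fewer falls were called with 1 array left out: 3 and 5 for replicates 1 and 2 of the day 9 knockout, and, for replicate 1 of the others, 7 for the day 9 control, 8 for the day 7 knockout and 10 for the day 7 control. Pou5f1 and Utf1 lost the call without knockout day 9 replicate 1.

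Of 19 germline genes, 4 rose and 1 fell. With normexp background correction 0 were called in either direction (limma), and with median centring 8 rose. Dazl, an RNA-binding protein of germ cells, lay at -3.59 and -4.45 on day 7 and -5.73 and -5.66 on day 9 in control cells, against -2.26 and -1.94 on day 7 and -4.10 and -4.70 on day 9 in knockout cells (1.60 ± 0.24 SE, adjusted p = 0.0115), with 2 of 4 control arrays above background, and its change was 0.62 with normexp background correction. Mael (1.00 ± 0.26 SE, adjusted p = 0.0457) and Sohlh2 (0.95 ± 0.25 SE, adjusted p = 0.0459) rose and Tdrd12 fell (-1.53 ± 0.32 SE, adjusted p = 0.026, 2 control arrays and 1 knockout array above background), and each of these 3 lost the call in 6 or 7 of the 8 fits that left out 1 array.

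In lists of general cell state the called share was near or below the 15.3% of all genes with a symbol, apart from a slightly higher share, 18.8%, in the early genes. Of 22 glycolysis and hypoxia genes 3 fell: the glucose transporter Slc2a3 (-1.06 ± 0.18 SE, adjusted p = 0.0155), the platelet phosphofructokinase Pfkp (-1.10 ± 0.15 SE, adjusted p = 0.00904) and the stress gene Ndrg1 (-0.96 ± 0.23 SE, adjusted p = 0.0341). Of 18 p53 targets 2 rose, Ccng1 on chromosome 11 (0.79 ± 0.18 SE, adjusted p = 0.034) and the X-linked receptor gene Eda2r (0.68 ± 0.18 SE, adjusted p = 0.0469), and 0 were called with chromosome 11 left out of the fit. Of 16 activity-induced early genes 2 fell, Nr4a2 at 0.58 and 0.93 on day 7 and 2.14 and 2.84 on day 9 in control cells, against -1.08 and -0.72 on day 7 and -0.15 and -1.11 on day 9 in knockout cells (-2.39 ± 0.36 SE, adjusted p = 0.0115) and Npas4 (-0.76 ± 0.14 SE, adjusted p = 0.019), and 1 rose, Btg2 (0.59 ± 0.15 SE, adjusted p = 0.0426). Ndrg1, Ccng1, Eda2r and Btg2 each lost the call in 6 to 8 of the 8 fits without 1 array, Npas4 in 3 and Slc2a3 in 1. Of 21 cholesterol synthesis genes, 18 unfolded protein response genes and 13 motile cilium genes, 0 were called in the limma fit.

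The size of a change in a dim gene depended on the background correction. Normexp correction, which here added an offset of 50 intensity units to every signal, took the call from 32 of the 140 named and called genes. Besides those given above, they included Ctsq, Olr1, Rasgrf1, Trim30d, Ccdc69, Ugt8a, Dnmt3l, Gad2, Slit1, Grin1, Dlgap2, Mael, Sohlh2, Tdrd12, Ndrg1, Eda2r and Btg2. Another 15 kept the call with a fitted log2 change over 1.5 times smaller: Tfap2b, Pax6, Ctsr, Tpbpb, Prl2a1, Prl4a1, Prl3d2, Serpinb9c, Serpinb9d, Zim1, Dio3, Pou5f1, Lefty1, Pcdha9 and Grin2b. Quantile normalization and the authors' value table took the call from Btg2 and Gad1 among the genes given here, and median centring from Gad1, Ndrg1, Shh and Slit1.

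Of the 8 genes with the smallest interaction p, Rasgrf1 was called and fell in all 4 pairs, and the other 7 were not called in the fit over both days. Ifna4, an interferon alpha gene, lay at -6.35 and -6.28 on day 7 and -2.77 and -2.88 on day 9 in control cells, against -2.87 and -2.80 on day 7 and -6.95 and -5.08 on day 9 in knockout cells. It was above background on 2 of 4 control and 3 of 4 knockout arrays, so the sizes of its differences are uncertain. The knockout arrays were higher on day 7 and lower on day 9, with an adjusted interaction p of 0.325 (limma). Ifna5 (1.11 on day 7 and -1.60 on day 9), Ifnab (0.85 and -1.38) and Ifna13 (1.56 and -1.59, 3 of 4 arrays of each genotype above background) had the same turn of sign. These are tandem copies on chromosome 4 whose probes may share targets. Tlr12, a receptor for profilin of parasites, was at -0.0018 on day 7 and 3.04 on day 9, with 1 of 4 control and 3 of 4 knockout arrays above background. Cd69, a lymphocyte activation marker, was at 0.09 and -1.74 (3 control and 2 knockout arrays), and Cyp2c65, a cytochrome gene, at 0.79 and -0.90 (1 control and 2 knockout arrays). None of the adjusted interaction p-values passed.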

How the data were processed

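RNA of 8 samples was hybridised to 1-colour Agilent arrays of 62976 spots, all on 1 slide with 1 scan date. The deposited scanner files give spot intensity. The submitters' processing notes name Agilent Feature Extraction 10.5.1. The processed signal is background-subtracted and not scaled between arrays, per the file headers. The deposited value table of the authors holds log2 values and was used as an alternative. The offset that sets its baseline is not given in the sources used here.

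From these files, control spots and outlier spots were left out, log2 intensity was reduced by the 75th percentile of the array, and spots of 1 probe were averaged. A probe was kept where 1 group or more had it well above background on each of its arrays. The probe with the highest mean stood for a gene. Of 55681 probes, 26307 (47.2%) were named through RefSeq accessions, 7 of them by the symbol itself, on GRCm38.p6. Other probes were tested singly. limma 3.58.1 in R 4.3.3 (lmFit, eBayes, two-sided) fitted genotype with day as covariate, with 5 residual and 2.61 prior degrees of freedom, and Benjamini-Hochberg adjustment over all tested. The interaction and the changes on each day came from 4 group means.

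Genes named were the 15 largest rises and falls among called genes with 1 sign, the 10 smallest p-values in each direction, 2 to 4 members with the smallest p of each list, Isl1, Lhx3, Chat, Olig2, Slc18a3, Mki67 and Pou5f1, and 8 genes with the smallest interaction p. Members and lists were chosen with earlier results of these data known. Named members were mostly picked by p-value, so a lack of overlap between genotypes only describes them. The share of all genes without such overlap was not counted. The 37 lists are described by counts and medians, with no test of a list. Alternatives were other scalings, filters, probe rules, priors, designs and each array left out. The normexp correction (offset 50) used median spot and background signals. Fits were tested on simulated data.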

Additional observations from a re-analysis of the deposited data

Results flagged for a closer look

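Among the 140 named and called genes, the 4 pair differences (knockout minus control, log2) were examined for 1 pair far from the other 3. Chance alone flags about 1 in 20 groups of 4. In 6 genes the gap of 1 pair to its nearest neighbour exceeded Dixon's critical share of the range. Kif3c was at -1.19 in the pair of day 9 replicate 1, against -0.76 to -0.67 in the others. Loxl1 was at 1.25 in day 7 replicate 2, against 0.95 to 0.98. Trim30d was at 0.196 in day 9 replicate 2, against 3.41 to 3.88. Top2a was at 0.777 in day 9 replicate 2, against 0.52 to 0.56. Ctsr was at -5.66 in day 9 replicate 2, against -3.97 to -3.88; its knockout arrays were all below background. Bhlhe22 was at 0.144 in day 9 replicate 1, against 0.69 to 0.74. In each gene all 4 pairs kept 1 sign, but so did 3873 of the 3897 calls, and many named genes were picked from those. The common sign therefore adds no support to these 6 genes.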

How the results depend on the processing

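The 3897 calls became 1886 with normexp background correction, 224 with no filter on dim probes, 787 without the day covariate, 34 on the day 9 arrays only and 0 on the day 7 arrays only (limma; 4315 at an unadjusted p under 0.05). Those with 1 sign in all pairs became 1881, 224, 787, 34 and 0. With 1 array left out, calls ranged from 952 to 2998, those with 1 sign from 952 to 2996, and interaction calls from 0 to 1. With unnamed probes collapsed by accession, an alternative added after seeing the data, 1 probe was called for the interaction. Every other alternative left the counts of calls within 1.5 times, from 3083 to 4914. The causes were not tested, except that the fits on 1 day use fewer samples. Deviations of same-numbered knockout and control arrays from their group means correlated at r = 0.433 on day 7 and -0.232 on day 9. The main fit used day and not the N number, as the rule set. Pairs of the same day and N number served the sign rule and the check for outlying pairs. A replicate block of N number beside day gave 4669 calls, and a replicate block of each pair of day and N number gave 3083. Of the 140 named and called genes, 85 were called in each fit without 1 array. No named gene reversed among the called ones. Over the scalings, 1609 genes and probes were called under all 4 alternatives, and 572 both there and without each array. The list medians of neural crest, Hox, early-response, cholesterol, glycolysis and unfolded protein genes changed sign with the scaling. Probes below background in 1 genotype give only bounds.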
